A study of Mus musculus with 3 samples.

Results

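A class of stromal cells of ectopic tissue masses was described that carried RNA of *Sox9* and of aggrecan (*Acan*) and had no RNA molecule of type II collagen (*Col2a1*). The cells were chosen by their counts in the Vehicle library, as those with 200 to 6000 genes, at most 5% of molecules from mitochondrial genes, at least 1% of molecules from the stromal genes *Col1a1*, *Col1a2*, *Col3a1*, *Dcn* and *Lum* together, 0 molecules of the macrophage gene *C1qa*, at least 1 of *Sox9*, at least 1 of *Acan* and 0 of *Col2a1*. The rule held for 276 cells, here called prechondrogenic cells, of 5478 passing cells in the Vehicle library and 21503 in all. They were set beside 273 Vehicle stromal cells with at least 2 molecules each of *Acan* and *Col2a1*, called chondrocytes, and 279 with *Sox9* but neither matrix gene, called *Sox9* cells without matrix. A further 161 stromal cells had none of the 3 genes and are called *Sox9*-negative. These 9 genes selected the cells, so their values are given as a description of the choice.

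The cells came from female CD-1 mice aged 6 to 8 weeks with subcutaneous implants, harvested on day 5 and digested with dispase. Vehicle mice carried Matrigel, a basement membrane gel, mixed with recombinant human BMP2 (rhBMP2), and were dosed daily by mouth with corn oil/DMSO. Palo mice carried the same mixture and were given palovarotene, a retinoid agonist, at 4 mg/kg. Matrigel-only mice carried gel without rhBMP2 and received nothing by mouth, so rhBMP2 and dosing cannot be told apart in a comparison with them. Each group was sequenced as 1 library pooled over masses, of 44252421 unique molecular identifiers (UMIs) on 9249 barcodes for Matrigel-only, 46317250 on 6065 for Vehicle and 46901673 on 7905 for Palo. Cells of 1 library are not replicates, so no test was run, no difference has a replicate check, and the 95% intervals given cover counting error only.

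Cartilage forms when mesenchymal cells condense and turn on SOX9, the transcription factor that, with SOX5 and SOX6, drives the genes of cartilage matrix. Type II collagen, with the minor collagens IX and XI, makes the fibrils of that matrix, and aggrecan is the large proteoglycan that is anchored in it by link protein (*Hapln1*). Bone sialoprotein (*Ibsp*) is a mineral-binding protein best known from osteoblasts and hypertrophic chondrocytes.

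The windows around the annotated starts of *Acan*, *Ibsp* and *Col11a1* are printed because these genes were listed as markers for the class. They lie at different levels in the cells that flank it, and all 3 were higher in chondrocytes than in the class. Each window runs from 250 bases before to 50 bases after the start (RefSeq, GRCm38.p6), on the plus strand. Capitals mark, on either strand, 4 short motifs. The first is a SOX core, spelled ACAAT or, in its longer form, spelled ACAAAG. The GC box is spelled GGGCGG, the TATA box is spelled TATAAA, and the last is the CCAAT box. The tables used held no window for *Sox9* or *Col2a1*. The *Acan* window is chr7:79052976-79053275, the *Ibsp* window chr5:104299037-104299336 and the *Col11a1* window chr3:114030290-114030589.
Acan: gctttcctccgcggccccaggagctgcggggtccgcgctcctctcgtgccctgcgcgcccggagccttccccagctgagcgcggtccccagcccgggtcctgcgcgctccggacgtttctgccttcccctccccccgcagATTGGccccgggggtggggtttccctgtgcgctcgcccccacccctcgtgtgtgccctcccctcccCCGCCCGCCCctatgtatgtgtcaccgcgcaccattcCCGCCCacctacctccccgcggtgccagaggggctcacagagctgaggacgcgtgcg
Ibsp: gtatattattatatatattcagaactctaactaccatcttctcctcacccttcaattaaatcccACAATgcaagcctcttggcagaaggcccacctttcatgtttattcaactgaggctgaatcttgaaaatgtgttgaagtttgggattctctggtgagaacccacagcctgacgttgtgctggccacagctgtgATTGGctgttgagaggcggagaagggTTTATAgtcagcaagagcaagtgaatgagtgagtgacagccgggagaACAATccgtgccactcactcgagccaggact
Col11a1: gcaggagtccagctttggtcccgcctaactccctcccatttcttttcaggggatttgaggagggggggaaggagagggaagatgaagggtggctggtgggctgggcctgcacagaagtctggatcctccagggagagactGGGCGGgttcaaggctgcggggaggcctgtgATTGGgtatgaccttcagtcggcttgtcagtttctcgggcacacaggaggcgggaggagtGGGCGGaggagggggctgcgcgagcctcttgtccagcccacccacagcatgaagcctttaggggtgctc
The *Ibsp* window held 2 SOX cores, 1 TATA box and 1 CCAAT box, the latter 2 on the reverse strand. The *Acan* window held 3 GC boxes, of which 1 pair overlapped, and 1 CCAAT box, and the *Col11a1* window held 2 GC boxes and 1 CCAAT box. Of 32851 such windows of all genes, 42.9% held a SOX core, 35.7% a GC box, 13.6% a TATA box and 37.4% a CCAAT box. These matches are letters only, and no binding was measured.

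The prechondrogenic cells made up 22.9% of the 1205 Vehicle stromal cells (95% exact Clopper-Pearson interval 20.6 to 25.4%) and 5.04% of all passing cells of that library. Their median depth was 16668 UMIs, against 18046 in chondrocytes, 17649 in *Sox9* cells without matrix and 11123 in *Sox9*-negative cells. *Acan* counts ranged from 1 to 131 UMIs with a median of 16, and 187 of the 276 cells had at least 10. *Sox9* counts ranged from 1 to 49 with a median of 7.

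Single UMIs of the 3 genes were also found in cells of another type. Among 2323 Vehicle macrophages, taken as cells with *C1qa* and under 1% stromal UMIs, 4.26% had an *Acan* UMI and 6.93% a *Col2a1* UMI at a median depth of 3604 UMIs, but 0.129% had 2 or more of *Acan*. The level of *Acan* in these macrophages was 15.5 CPM (counts of UMIs scaled to a total of 1000000), and in the class it was 1516 CPM. In the class 31 cells had 1 *Acan* UMI, which at their depth is near that background, and 245 cells remained without them. Just outside the rule lay 77 cells that met the rest of it but had 1 *Col2a1* UMI, and 46 that had *Acan* and no *Col2a1* but no *Sox9*.

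Cells with *Acan* and without *Col2a1* outnumbered the reverse. Of the 1205 Vehicle stromal cells, 322 had *Acan* and 0 *Col2a1* UMIs, and 80 had *Col2a1* and 0 *Acan* UMIs. With at least 10 UMIs of one gene and at most 1 of the other, 255 cells were on the *Acan* side (21.2%, 18.9 to 23.6%) and 4 on the *Col2a1* side (0.332%, 0.0905 to 0.848%), while 223 cells had at least 10 of both. *Col2a1* was the more abundant RNA in chondrocytes, at 6507 CPM against 3324 CPM for *Acan*. Of 1243 stromal cells thinned to 2900 UMIs, 335 had *Acan* and 0 *Col2a1* UMIs and 31 the reverse, the definition that gave 322 and 80 above. Since the stromal limits were applied after thinning, 105 of the 1243 were not among the 1205, and of the 335 and the 31 cells, 314 and 31 were. All cells were taken on day 5, so the order in which a cell turned these genes on was not measured.

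**Figure D1:**
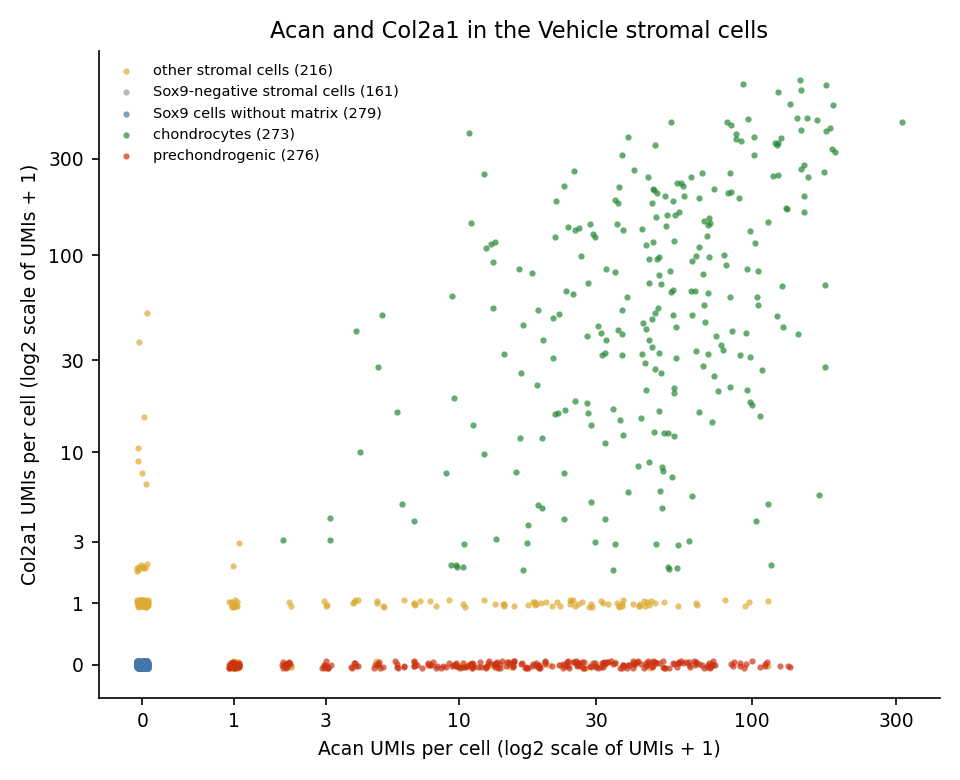
UMIs of *Acan* (horizontal) and *Col2a1* (vertical) in each of the 1205 Vehicle stromal cells, on log2 scales of UMIs + 1 with a small random shift of each point; colours give the classes, and the *Sox9*-negative cells lie under the *Sox9* cells without matrix at 0 and 0. The 276 prechondrogenic cells run along the bottom from 1 to 131 *Acan* UMIs, and 17 cells with at least 2 *Col2a1* UMIs lie at 0 *Acan* UMIs on the left edge.

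Nearly all cells that met the rule were in the Vehicle library. It held for 1 of 1767 Matrigel-only stromal cells (0.0566%) and 3 of 980 Palo stromal cells (0.306%, 0.0632 to 0.892%). The Matrigel-only cell had 1 *Acan* UMI and the Palo cells had 1, 3 and 2, and in all 4 cells *Ibsp*, *Col9a1* and *Comp* were at 0. Chondrocytes numbered 0 in both libraries, which allows shares of up to 0.170% and 0.306%. After thinning to 2900 UMIs the class held 219 of 1243 Vehicle stromal cells (17.6%, 15.5 to 19.9%), 0 of 1701 Matrigel-only and 0 of 1050 Palo cells. Of those 219 cells, 159 were members without thinning, and 14 chondrocytes and 33 other stromal cells had *Col2a1* UMIs that were not drawn. The remaining 13 had *C1qa* UMIs that were not drawn and so lay outside the 1205 stromal cells. Of the barcodes, 19 were shared between the Matrigel-only and Vehicle libraries and 11 between Vehicle and Palo, and 1 member carried a barcode also present in Matrigel-only.

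Several genes found in the class, though not all, were also low over the whole stroma of the other libraries. *Ibsp* was at 797 CPM in Vehicle stromal cells and at 0 UMIs in both others, and *Col9a1* at 238 CPM and at 0 UMIs in both. *Col11a1* was at 21.0 CPM in the stroma of Matrigel-only mice, 960 in that of Vehicle mice and 66.7 in that of Palo mice. *Alpl*, the phosphatase of mineralizing cells, was at 0.603, 93.9 and 0.157 CPM. *Postn*, a matricellular gene of fibroblasts, differed less, at 2756, 3823 and 3623 CPM. *Lrrc15*, a surface protein of activated fibroblasts, ran the other way, at 299 CPM (291 to 308), 168 (162 to 174) and 398 (387 to 409). For *Col9a1* and *Ibsp* the Vehicle sums came largely from chondrocytes, which numbered 0 in both other libraries. For *Lrrc15* that was not so, with 38 of its 3426 UMIs in chondrocytes. Of 4861 *Col9a1* UMIs in the Vehicle stroma, 4175 were in chondrocytes and 498 in the class, and of 16275 *Ibsp* UMIs, 9359 were in chondrocytes, 3224 in the class and 2211 in *Sox9* cells without matrix. Cells of that last kind numbered 415 in the Matrigel-only and 337 in the Palo library, where *Ibsp* had 0 UMIs. In the Vehicle library they numbered 279 and held *Ibsp* at 443 CPM. The cause of the difference in *Ibsp* between the libraries was not tested.

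Of the 4 markers, *Sox9* and *Acan* were set by the rule and *Ibsp* and *Col11a1* were not. *Col11a1* (chr3:114030540-114220718, plus strand, mm10), a chain of the minor collagen XI, was at 777 CPM in the class (752 to 802), 192 in *Sox9* cells without matrix (180 to 205) and 2660 in chondrocytes (2615 to 2705). A UMI of it was found in 79.3% of members, and in 73.2% (67.3 to 78.5%) when cells were thinned to 8200 UMIs. *Ibsp* (chr5:104299171-104311469, plus strand, mm10) was at 669 CPM in the class (646 to 692), 443 in *Sox9* cells without matrix and 1854 in chondrocytes. It was found in 42.0% of members, 35.4% (29.6 to 41.6%) after thinning, so no UMI was found in most members. In the macrophages 3.83% had *Col11a1* and 2.67% *Ibsp*. Both genes were thus higher in chondrocytes than in the class, and neither was particular to it. *Sox9* (chr11:112782224-112787760, plus strand) was at 303, 537 and 896 CPM in *Sox9* cells, the class and chondrocytes.

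Compared with chondrocytes, the prechondrogenic cells were lower in most of the cartilage collagen and matrix genes tested and higher in 3 of 6 contractile genes. Of 3288 genes with at least 50 CPM in either class, 62 were at least 2-fold higher in prechondrogenic cells (1.89%) and 78 at least 2-fold lower (2.37%), on the scale of CPM with 5 added. Without the limit of 50 CPM both counts were larger, and more genes were higher than lower. The median log2 ratio of all genes tested was 0.00.

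*Hapln1*, the link protein, was at 14.9 CPM in the class (11.7 to 18.8) and 505 in chondrocytes (485 to 525), a log2 ratio of -4.68. *3110079O15Rik* was at 4.56 and 182 CPM. *Cnmd*, the cartilage angiogenesis inhibitor chondromodulin, was at 10.6 and 155 CPM, and *Matn3*, a matrilin, at 11.0 and 140 CPM. The collagen genes *Col9a3* (47.1 and 739 CPM), *Col11a2* (58.5 and 581 CPM) and *Col9a1* (103 and 827 CPM) followed, with *Susd5* at 20.1 and 193, *Sorbs2* at 8.92 and 100.2, and *Rtl3* at 5.18 and 62.0 CPM. All 6 tested cartilage collagens outside the rule were at least 2-fold lower, with a median log2 ratio of -2.30 over the 7 measured. Of 14 tested genes of the cartilage matrix beyond collagen, 9 were at least 2-fold lower, among them *Comp* (171 and 1051 CPM), which bridges collagen fibrils. One was higher, *Cilp*, found in 18.1% of members, and 53.6% of its 265 UMIs came from 5 of them. *Fmod*, a small proteoglycan that binds collagen, was at 1986 CPM in the class and 2068 in chondrocytes.

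Of 13 tested chondrogenic transcription factors 4 were at least 2-fold lower in the class, and of 15 tested genes of glycosaminoglycan synthesis also 4, with 0 higher in either list and median log2 ratios of -0.14 and -0.27 over the genes measured. The members of both lists named here are among the lower ones. *Sox6* was at 27.0 CPM against 107, *Sox5* at 36.5 against 84.0 and *Trps1* at 83.2 against 231. The receptors *Pth1r*, which binds parathyroid hormone-related protein, and *Fgfr3*, which restrains chondrocyte growth, were at 202 against 431 and 28.4 against 129 CPM. They belong to other lists. Of 9 tested hypertrophic cartilage genes, 3 were at least 2-fold lower and 0 higher, with a median log2 ratio of 0.00 over the genes measured. Of 2 tested hedgehog and parathyroid hormone-related protein genes, 1 was lower and 0 higher. Of 5 tested FGF and Wnt genes, 1 was lower and 1 higher. *Slc26a2*, the sulfate transporter needed to sulfate aggrecan, was at 396 against 837 CPM and *Xylt1*, which starts the glycosaminoglycan chains, at 62.0 against 195.

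*Lrrc15* was at 127 CPM in the class (117 to 137) and 7.53 in chondrocytes (5.33 to 10.3), a log2 ratio of 3.39. After thinning it was found in 39.9% of members and 5.31% of chondrocytes. *Cilp*, *Mfap5* (microfibril), *Klk4* and *Prss23* (proteases), *Tagln* (actin binding), *Igfbp4*, *Sfrp4* (Wnt antagonist), *Saa3* and *Mfap4* completed the 10 with the highest ratios, at log2 ratios from 2.04 to 2.56. Most of the *Saa3* UMIs, 92.1%, came from 5 members. Of 6 tested contractile genes, 3 were at least 2-fold higher and 0 lower. *Acta2*, smooth muscle actin, was at 752 against 208 CPM. *Ltbp2*, *Tgfb3* and *Tgfbr2* were the 3 of 14 tested activin and TGF-beta genes at least 2-fold higher, at 312 against 88.7, 114 against 51.1 and 85.7 against 38.8 CPM. *Inhba*, which encodes the activin A subunit, was at 495 CPM in the class (475 to 515) and 521 in chondrocytes (502 to 542). In *Sox9* cells without matrix it was at 720 CPM and in *Sox9*-negative cells at 847. The share of cells with an *Inhba* UMI ran the other way between the *Sox9* cells and the class, at 71.0% and 82.2%.

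**Figure D2:**
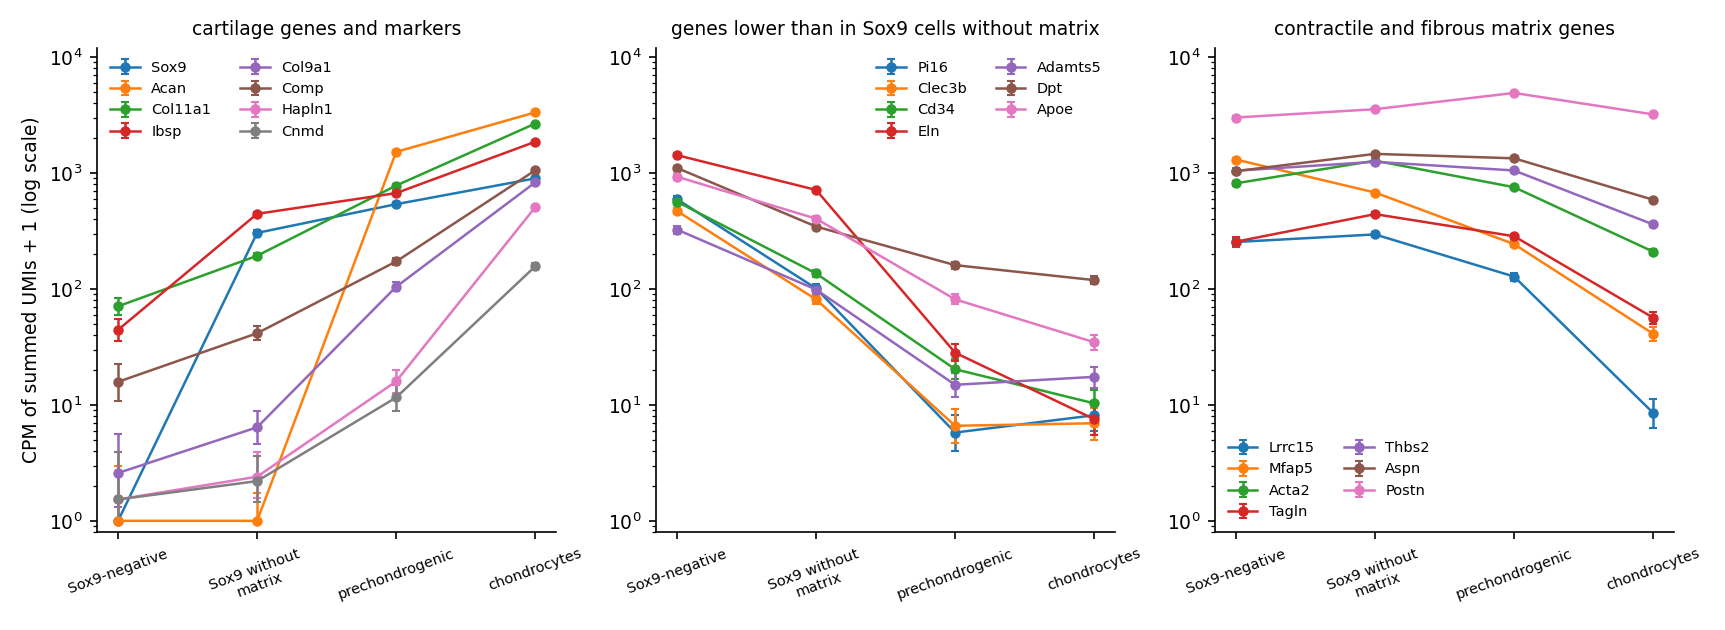
CPM of summed UMIs + 1 (log axis) of named genes in the 4 classes of Vehicle stromal cells, with exact Poisson 95% intervals as bars. *Acan* is 0 in the 2 left classes by the rule. *Hapln1* steps from 14.9 CPM in the class to 505 in chondrocytes, while *Pi16* and *Clec3b* are as low in the class as in chondrocytes, and *Lrrc15* and *Acta2* lie between.

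Compared with *Sox9* cells without matrix, the class was higher in minor cartilage collagens and lower in 10 of 18 mesenchymal progenitor genes. Of 3316 genes tested, 42 were at least 2-fold higher (1.27%) and 72 at least 2-fold lower (2.17%), with a median log2 ratio of 0.01 over all of them. The 5 with the highest ratios were *Col9a1* (103 against 5.41 CPM, log2 ratio 3.38), *Col9a2* (60.8 against 7.41), *Col11a2* (58.5 against 7.41), *Frzb*, a Wnt antagonist of cartilage (55.4 against 7.01), and *2610528A11Rik* (67.6 against 9.81). Of 5 tested cartilage collagens 4 were at least 2-fold higher. Among genes tied to mineralization, *Alpl* was at 133 against 35.0 CPM, close to its 166 CPM in chondrocytes. *Sp7* was at 113 against 94.9 CPM, *Runx2* at 89.6 against 98.7 and *Spp1* at 529.7 against 499.7, and *Col10a1*, *Ihh* and *Bglap* had 0 UMIs in the class.

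Of 18 tested mesenchymal progenitor genes, 10 were at least 2-fold lower in the class and 0 higher, and 23 of 24 measured lay below 0 on the log2 scale. Over chondrocytes 19 of the 24 lay above 0 and 5 below. *Ly6a*, the most abundant of the list, was at 634 CPM in the class, 788 in *Sox9* cells and 1205 in chondrocytes, so the list did not fall evenly. *Pi16*, a marker of universal fibroblasts, was at 4.77 CPM in the class (3.02 to 7.16) and 99.9 in *Sox9* cells (91.3 to 109), and *Clec3b* at 5.60 and 80.1. *Tnxb* was at 5.81 and 77.9 CPM. *Eln*, elastin, which belongs to the fibrous matrix list and not to the progenitor list, was at 27.2 and 712. In the *Sox9* cells, 69.7% of the *Eln* UMIs and 50.1% of the *Pi16* UMIs came from 5 cells of each gene. *Ccl5*, a lymphocyte chemokine, was at 2.07 and 81.1 CPM, and all 405 of its UMIs in the *Sox9* cells came from 2 cells; its log2 ratio went from -3.61 to 0.058 without the cells of highest Scrublet (doublet) scores. *Cd34* was at 19.3 against 135 CPM. Genes of glycolysis stood higher than in the *Sox9* cells in all 16 measured, with a median log2 ratio of 0.36, and those of the hypoxia response in all 18, with a median of 0.44. Past 2-fold were 0 of 14 tested glycolysis genes and 1 of 17 tested hypoxia genes, *Car9*. Over all 3316 genes tested the median log2 ratio was 0.01, with 1.27% at least 2-fold higher and 2.17% at least 2-fold lower. *Pkm*, the last enzyme of glycolysis, was at 1760, 2492 and 3161 CPM in *Sox9* cells, the class and chondrocytes.

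Cells with several genes of the G2 and M phases were also more frequent than among the *Sox9* cells. At least 5 of 18 G2 and M phase genes were detected in 91 of 276 members (33.0%, 27.5 to 38.9%), 28.9% of chondrocytes (23.6 to 34.7%) and 21.1% of *Sox9* cells without matrix (16.5 to 26.4%). These shares are of cells as deposited, at median depths of 16668 to 18046 UMIs. *Mki67* was at 123, 99.6 and 75.9 CPM in these classes.

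**Figure D3:**
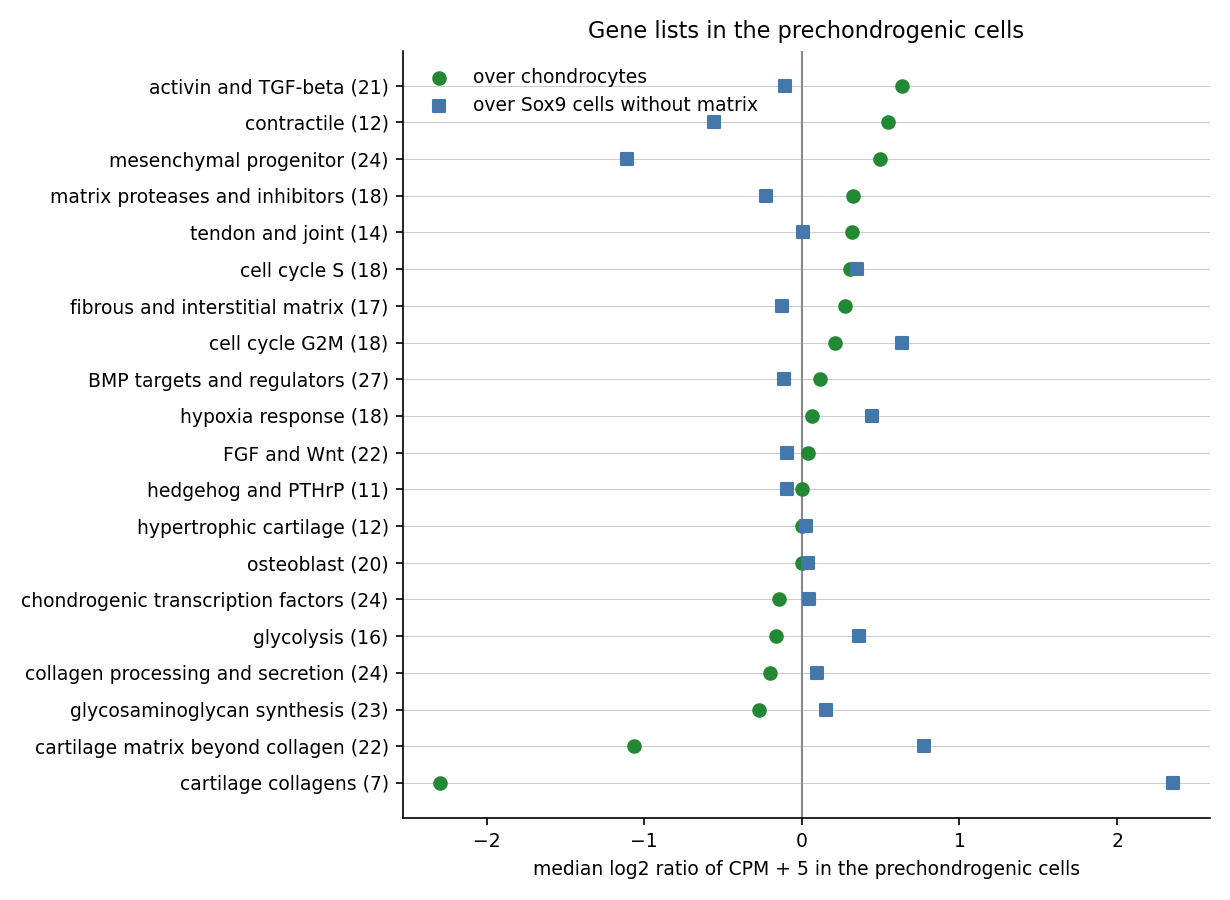
Median log2 ratio (CPM with 5 added) of each gene list in the prechondrogenic cells, over chondrocytes (circles) and over *Sox9* cells without matrix (squares); the number of measured genes outside the rule is in brackets. The cartilage collagens lie farthest from 0 in both directions, at -2.30 and 2.36, and the mesenchymal progenitor list lies at 0.50 and -1.11. Of the 24 genes of that last list, 19 lie above 0 over chondrocytes and 5 below.

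For most genes that set chondrocytes apart from *Sox9* cells without matrix, the class lay between the 2, but not at the same point for every gene. Of 159 genes at least 2-fold higher in chondrocytes, 149 were at a level between the flanking classes, and the class stood at a median of 43.1% of the log2 distance from *Sox9* cells to chondrocytes. Of 240 genes at least 2-fold lower in chondrocytes, 230 lay between, with a median of 44.9%. These genes were taken for their difference between the 2 flanks, and no other class was placed on this scale. The counts are thus a description and do not show an intermediate state. The mean level of a class does not say whether each cell was intermediate.

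Among the cartilage genes, some stood nearer to the *Sox9* cells. *3110079O15Rik* stood at 17.0% of the distance, *Matn3* at 25.2%, *Hapln1* at 25.9% and *Cnmd* at 28.3%. *Comp* (43.1%), *Col11a1* (52.9%), *Col9a1* (53.5%), *Slc26a2* (54.3%) and *Wwp2* (62.0%), the host gene of a SOX9-responsive microRNA, stood near the middle. *Alpl* was at 85.4% and *Car9*, a hypoxia-induced carbonic anhydrase, at 96.7%. Among genes lower in chondrocytes, *Pi16* (110%), *Clec3b* (102%) and *Adamts5* (108%), an aggrecanase, were at the level of chondrocytes, and *Eln* (75.2%) and *Cd34* (76.8%) were near it. In chondrocytes, 5 cells of each gene held 100% of the 36 *Pi16* UMIs and 96.7% of the 30 *Clec3b* UMIs. In the class, 5 cells of each gene held 73.9% of 23 and 81.5% of 27. *Klk4* (-4.91%), *Igfbp4* (-5.43%), *Tgfb3* (6.13%), *Aspn* (9.72%) and *Thbs2* (13.9%) were at the level of the *Sox9* cells or close to it. These genes outside the extremes of the ratios were picked after their values were seen.

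**Figure D4:**
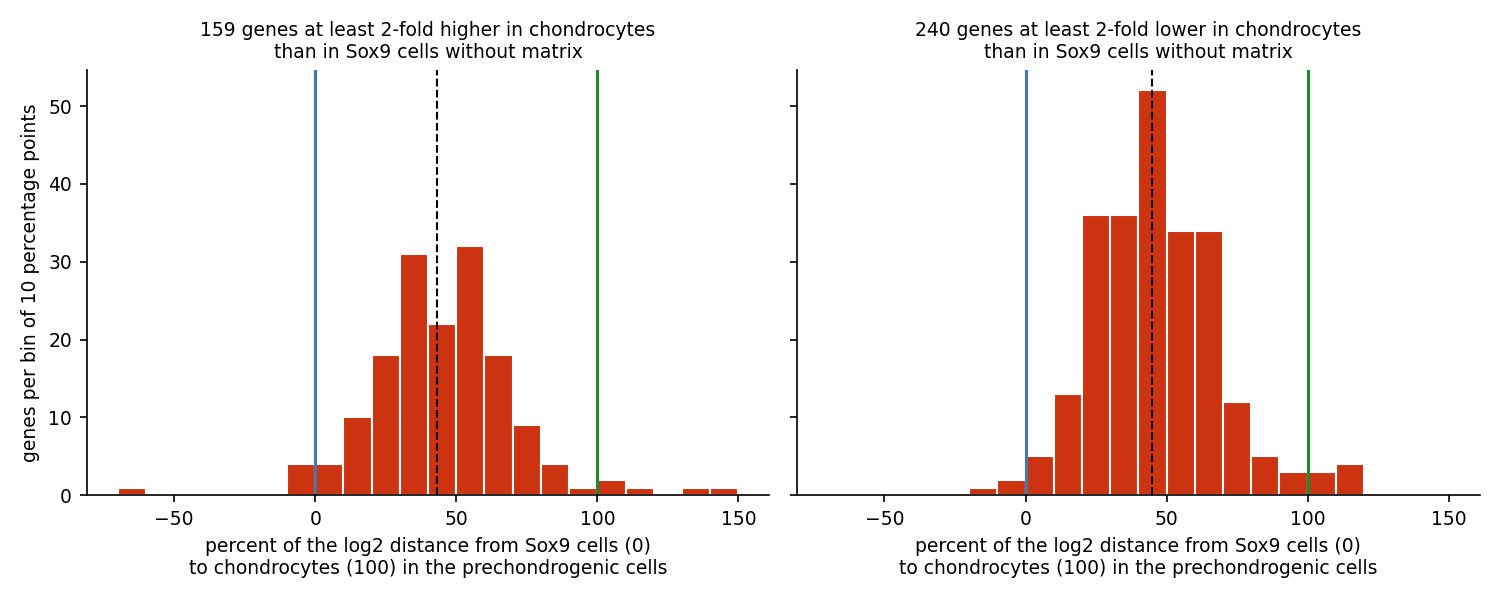
Number of genes per bin of 10 percentage points (vertical) by the position of the prechondrogenic cells on the log2 distance from *Sox9* cells without matrix (0, blue line) to chondrocytes (100, green line). The dashed medians are at 43.1% for the 159 genes higher and 44.9% for the 240 genes lower in chondrocytes.

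Few genes peaked in the class. Of 2975 genes with at least 50 CPM in it, 5 were at least 1.5-fold above both flanks and 0 at least 2-fold. *Dkk3*, a secreted Dickkopf-family protein, was at 57.5, 104 and 54.9 CPM in *Sox9* cells, the class and chondrocytes. *Scx*, the transcription factor scleraxis of tendon progenitors, was at 29.2, 56.2 (49.7 to 63.3) and 30.1 CPM, *Ndrg1*, a hypoxia-induced gene, at 295, 490.5 and 271, and *Pde7a* at 33.8, 55.8 and 32.9. *Cd74* was the fifth, and 79.1% of its UMIs came from 5 members. *Rrm2*, *Itga11*, *Ddah1*, *Cdc20* and *G0s2* came next, with a smaller log2 ratio of the 2 from 0.54 to 0.58. Of all these genes only *Cdc20* was higher in the *Sox9*-negative cells, which are not a flank, at 68.2 CPM against 62.4 in the class. Of 2570 genes with at least 50 CPM in both flanks, *Ly6c1*, *Klf2* and *Tubb2b* were at least 1.5-fold below both.

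Members with more *Acan* were nearer to chondrocytes in several of the genes tried but not in all. The class was divided into 31 cells with 1 *Acan* UMI, 58 with 2 to 9, 94 with 10 to 29 and 93 with at least 30, at median depths of 20845, 13872.5, 16009.5 and 18641 UMIs. In that order *Col9a1* was at 8.01, 33.1, 102 and 169 CPM, and *Comp* at 11.2, 83.8, 171 and 267. *Col11a1* was at 265 CPM in the cells with 1 *Acan* UMI and at 786, 832 and 901 in the others. *Hapln1* was at 1.60 to 21.9 CPM, against 595 in the 227 cells with *Sox9*, *Acan* and at least 10 *Col2a1* UMIs. *Lrrc15* was at 332, 150, 116 and 54.7 CPM, and *Acta2* at 1410, 911, 691 and 504. *Ibsp* was at 528 (472 to 588), 418 (375 to 464), 516 (481 to 554) and 960 CPM (916 to 1006), so the group with the most *Acan* stood above the other 3. *Postn*, at 4161, 4937, 5036 and 4999 CPM, stayed above the 2913 CPM of the cells with at least 10 *Col2a1* UMIs. *Scx* was at 62.6, 50.8, 54.4 and 58.0 CPM, against 30.2 in those cells, and *Ndrg1* at 355, 347, 649 and 471, against 253. *Inhba* was at 895, 495, 490 and 362 CPM, against 532.

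Beside the *Sox9* cells without matrix, the cells with 1 *Acan* UMI were higher in *Col11a1*, at 265 CPM (226 to 308) against 192 (180 to 205), and lower in *Comp*, at 11.2 (4.51 to 23.1) against 40.4 (35.1 to 46.4). For *Lrrc15* the intervals of both overlapped, at 332 CPM (288 to 381) and 294 (279 to 309). The 77 cells with 1 *Col2a1* UMI were at 688 CPM of *Col11a1* (643 to 735), 98.6 of *Col9a1* (82.1 to 117) and 112 of *Lrrc15* (94.3 to 132). In the 43 cells with 2 to 9 *Col2a1* UMIs, *Hapln1* was at 76.8 CPM and *Lrrc15* at 21.9. The values of 1 library, depth and *Acan* itself share these cells, so the groups are a description.

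**Figure D5:**
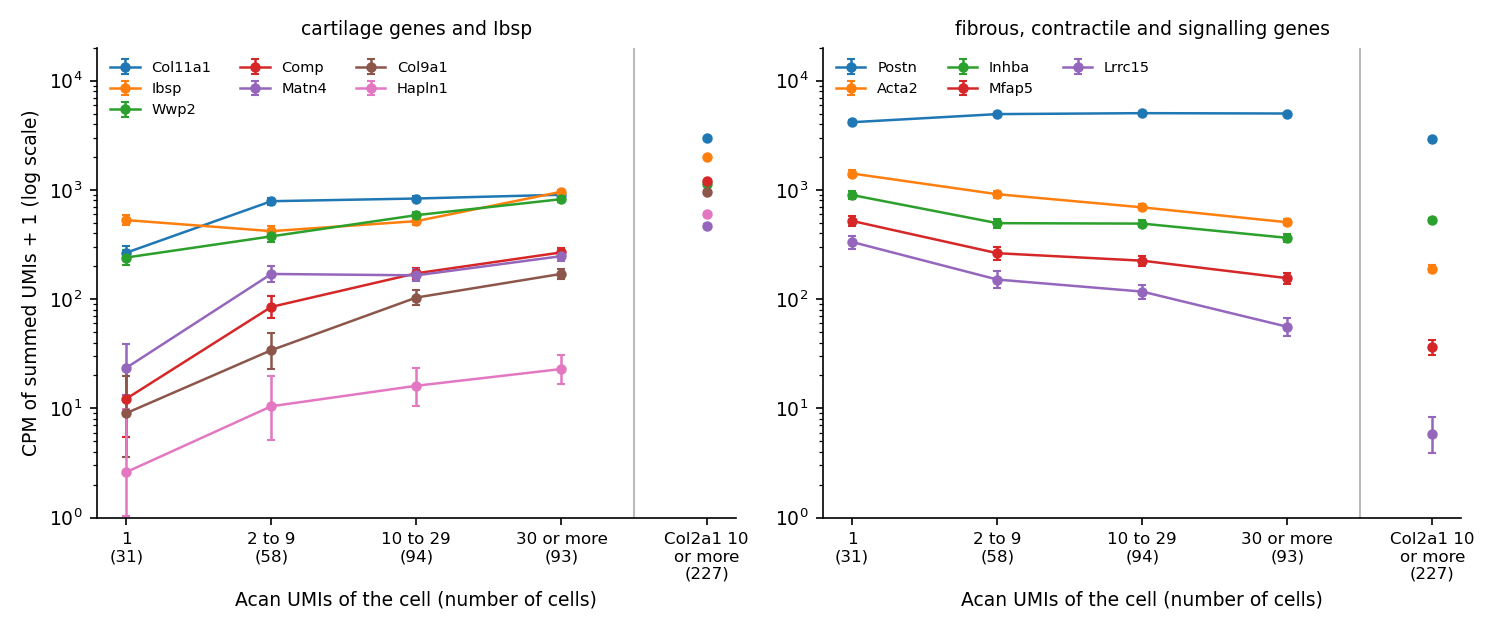
CPM of summed UMIs + 1 (log axis) with exact Poisson 95% intervals, by the number of *Acan* UMIs of the prechondrogenic cells, and in cells with at least 10 *Col2a1* UMIs (right of the line); cell numbers are in brackets. *Col9a1* and *Comp* are higher and *Lrrc15* and *Acta2* lower from left to right within the class.

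Markers of other cells were low in the class. The 15 macrophage genes summed to 363 CPM, against 570 in *Sox9* cells without matrix and 284 in chondrocytes. The lower sum than in the *Sox9* cells rested on *Apoe*, at 80.3 against 402 CPM. Without it the other 14 genes summed to 282 CPM in the class, 168 in *Sox9* cells and 251 in chondrocytes, and over the *Sox9* cells 9 genes were higher and 5 lower, *Apoe* among the latter, with a median log2 ratio of 0.27. The most abundant was *Lyz2* at 125 CPM against 57.5 in the *Sox9* cells, *C1qa* was at 0 by the rule, and *C1qb* was at 6.01 CPM. In 2 members macrophage genes took at least 1% of the UMIs. The median share of UMIs from macrophage genes was 0.0126% in the class and 0.0154% in *Sox9* cells. The 90th percentiles were 0.0349% and 0.183%, so the typical member did not have more than the typical *Sox9* cell. The 10 endothelial genes summed to 9.54 CPM, led by *Egfl7*, with *Vwf*, *Emcn* and *Cldn5* at 0. The 8 pericyte and smooth muscle genes summed to 62.0 CPM, of which *Cspg4*, also a gene of cartilage, gave 50.2, and *Rgs5* was at 0. *Sox10* of Schwann cells, *Myf5* and *Pax7* of muscle and *Adipoq* of fat were at 0. The 10 T and NK genes summed to 25.9 CPM, against 100 in *Sox9* cells, of which *Ccl5* gave 81.1, and 6.93 in chondrocytes. All 10 were higher in the class than in chondrocytes. The part of these other cell types in the results was not tested.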

How the data were processed

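Single cells were measured in 3 groups of mice, 1 droplet library a group. Per the submitters' processing notes the authors used Cell Ranger 3.0.2 and mm10, and they deposited raw UMI counts per barcode and gene (31053 genes) without normalization. Those notes also name Seurat 3, and the authors' clusters were not used here.

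Cells were chosen by the rule given above. UMIs were summed over the cells of a class and divided by all UMIs of those cells (CPM), ratios used CPM with 5 added, and genes with at least 50 CPM in either class were compared. Shares of cells with a UMI after thinning are expected values at 8200 UMIs for Vehicle classes, and for the rule each passing cell of at least 2900 UMIs was thinned once to that number, before the stromal and *C1qa* limits were applied. Shares carry Clopper-Pearson and CPM values Poisson 95% intervals, and an upper limit for 0 is 3 counts of the total. No test was run, since each group is 1 library. Scrublet's own threshold called 1 of 5478 Vehicle cells a doublet and had not worked, so doublets were kept and the highest 240 scores left out as an alternative. The step that computes ratios was tested on simulated data. The members and the gene lists were chosen with earlier results of these data known. Named genes were the 10 highest and 10 lowest over chondrocytes, the 5 highest and 5 lowest over *Sox9* cells without matrix, the 10 with the highest smaller ratio, the markers and 2 to 4 members of each list. The symbol *Aldoa* is repeated in the files and was left out. Gene positions are those of GENCODE vM21. TMM factors came from edgeR 4.0.16 (R 4.3.3) and Scrublet from scanpy 1.11.5. The other steps ran in Python 3.11.15 (scipy 1.17.1, numpy 2.4.6, matplotlib 3.10.9 and pandas 2.3.3).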

Additional observations from a re-analysis of the deposited data

Results flagged for a closer look

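Some Vehicle barcodes met the genes of the rule but were left out by its limits, and no such barcode was found in the Matrigel-only and Palo libraries. The limit of 6000 genes left out 9 of them, at a median of 38217 UMIs, and the mitochondrial limit 16, at a median of 5423 UMIs. A count of *C1qa* left out 40, at a median of 18142.5 UMIs, and the limit on stromal genes left out 4, at a median of 14928.5 UMIs. They were singled out because they carry *Sox9* and *Acan* without *Col2a1* outside the cells described above.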

How the results depend on the processing

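The number of members stayed within 1.5 times of 276 under each of the 9 alternatives tried, from 219 with thinning before the rule to 353 with up to 1 *Col2a1* UMI allowed; it was 245 with at least 2 *Acan* UMIs and 267 without the highest Scrublet scores. Gene counts moved past 1.5 times with the filter on low genes. Over chondrocytes, a filter at 20 CPM gave 118 genes higher and 119 lower, and no filter 158 and 148. Over *Sox9* cells without matrix, 20 CPM gave 66 higher, and no filter 101 higher and 153 lower. Pseudocount, TMM factors, a mean over cells, shared depth, *Acan* of at least 2 and doublet removal kept the 4 counts within 1.5 times. Of 464 alternative values of 54 single gene ratios, 35 moved past their counting interval and 1 reversed, *Ccl5* over *Sox9* cells, from -3.61 to 0.058 without the highest Scrublet scores. Of 340 alternative values of 40 list medians, 26 moved by at least 0.1, 10 of them with a pseudocount of 1 CPM; tendon and joint genes over *Sox9* cells went from 0.01 to -0.17 as a mean over cells. Shares of members with a UMI were higher as deposited than after thinning for the 6 genes tried, from 27.9 to 38.8% for *Scx*. No paired analysis was possible because each group is 1 library. A class with 0 members in a library is limited to the share that 3 cells give, and members with 1 *Acan* UMI lie near the background.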
